A study of Mus musculus with 54 samples.

Results

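The +EMD line of H2K myogenic progenitors was compared with wildtype H2K progenitors 1 day after both were switched from proliferation to differentiation medium. All 17520 genes of the deposited table for this comparison were taken, using its 2 columns of normalised expression, of 19148 genes listed over the 11 tables read here. The wildtype progenitors were not transduced. The +EMD progenitors came from EMD-/y progenitors, which lack emerin, and were given wildtype emerin with a lentivirus and selected with puromycin. Both lines carry the H2K transgene, which keeps the cells dividing in growth medium with interferon gamma at the permissive temperature. The labels give 3 replicates for each group, 6 samples of the 54 in the series, with 18 groups in all. Methods state 2 biological replicates with 3 technical replicates each, and do not state that the +EMD line was 1 clone. For the RNA of differentiating cells the methods plate wildtype and EMD-/y cells at a lower density than vector and mutant lines, and give no separate density for +EMD. Parent line, transduction, puromycin, plating density and emerin therefore cannot be told apart in this comparison.

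Emerin is a protein of the inner nuclear membrane that binds lamins and chromatin regulators, and its loss causes Emery-Dreifuss muscular dystrophy. Myogenic progenitors that receive differentiation signals normally leave the cell cycle, express myogenin and MEF2 factors, switch on the genes of the contractile apparatus and fuse into myotubes. PAX7 and MYF5 mark the progenitor state, MYOD1 spans both states, and the cyclin-dependent kinase inhibitor CDKN1A holds cells out of the cell cycle. Day 1 is the time at which most progenitors withdraw from the cell cycle.

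In +EMD cells at day 1, genes of the sarcomere, of calcium handling and of muscle energy metabolism were lower than in wildtype cells, whereas most genes of DNA replication and 19 of 57 genes of mitosis were higher. The fusion gene Mymk and the factor Mef2c were lower, Pax7 and Myf5 were higher, and Myod1, Myog and Cdkn1a were within 2-fold. Many interferon-response genes and some collagens were lower. Genes on chromosomes 8 and 16 were, as whole sets, displaced upwards.

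The table gives 1 normalised expression value per group and gene and no value per library, so no spread between replicates and no test can be given. Each number below is the authors' group value, which was not taken to be a plain group mean, as described under processing. A ratio is the log2 of (+EMD value + 1) over (wildtype value + 1), from which folds were also taken. The ratios of low genes are therefore understated. A gene was counted as higher or lower when it was past 2-fold and the mean of both group values was at least 10. Of the 13177 genes at that level, 1099 were higher in +EMD (8.34%), 1329 were lower (10.1%) and 10749 were within 2-fold. The remaining 4343 genes were below the level filter. The quartiles of the ratios lay at -0.42 and 0.41, with a median of -0.01. The median fold was 2.74 among higher genes and 3.29 among lower genes. A difference of at least 4-fold was seen for 306 higher and 544 lower genes. The genes nearest the 2-fold limit were Naa50, just inside with 5626 in wildtype and 11254 in +EMD, and Scrn1, just outside with 1093 in wildtype and 546 in +EMD.

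**Figure D1:**
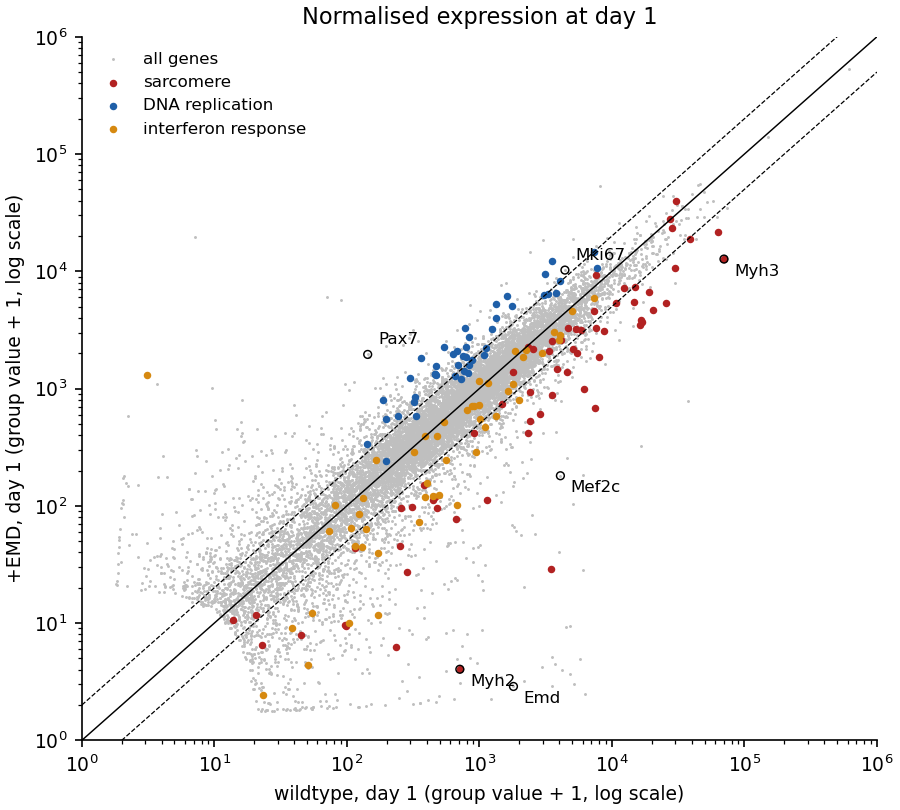
Group values at day 1 in wildtype (x axis) and +EMD (y axis), both with 1 added and on log scales. Each point is a gene with a mean of at least 10, the solid line is equality and the dashed lines are 2-fold. Sarcomere genes lie mostly under the lower dashed line, and 30 of 44 DNA replication genes on or above the upper one.

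Facts of the whole table bear on some of these counts. The depth of the 6 libraries relative to each other, read from genes with a single read, lay between 0.928 and 1.07. The values summed to 18989804 in wildtype and 17974611 in +EMD. Predicted genes, which the sequencing provider found in the reads and which have no name, were 5.74% of genes over the level filter, 14.1% of the higher genes and 14.2% of the lower ones. The wildtype group at day 1 stood apart for a small set of genes. In wildtype, 57 genes were at least 4-fold lower at day 1 than at both day 0 and day 2, and 51 of these were predicted genes. Another 42 wildtype genes were at least 4-fold higher at day 1 than on both other days, 12 of them predicted. In +EMD cells the same counts were 1 and 0. Without these genes 1041 genes were higher and 1314 lower. The defining myogenic markers were present in both groups but not all at like values. Myod1, Myog, Des, Cdh15 and Itga7 were within 2-fold. Pax7 (143 in wildtype and 1953 in +EMD) and Myf5 (234 and 999) were higher in +EMD. Of the marker lists of other cell types, 3 of 10 endothelial, 3 of 11 immune, 2 of 8 adipocyte, 2 of 9 glial and neural, and 1 of 10 epithelial genes passed the level filter. The same was true of 10 of 15 fibroblast, 8 of 10 smooth muscle and pericyte, and 6 of 10 cartilage and bone genes.

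The targeted gene was examined first. Emd, on chromosome X at 74254674 to 74261563 of mm10, had a value of 1806 in wildtype and 1.88 in +EMD at day 1. Its +EMD value was 1.42 at day 0 and 1.55 at day 2, and the EMD-/y parent had 2.36 at day 1 in its own table. The mouse Emd row was thus near 0 in every +EMD group. The species and sequence of the lentiviral cDNA are not given in the sources used here, so this row does not show whether the transgene was expressed. Among 23 genes of emerin's partners and the nuclear lamina, 5 were higher (21.7%, against 8.34% of all genes). Emd and 1 other gene were lower (8.70%, near the 10.1% of all genes). The other lower gene was Syne1, which encodes nesprin-1 (3800 and 1715). The higher genes were Lmnb1 (lamin B1, 1186 and 4040), Syne2 (nesprin-2, 389 and 1224), Nrm (nurim, 124 and 361), Lbr (the lamin B receptor, 1089 and 2419) and Banf1, the chromatin-binding partner of LEM proteins (1156 and 2351), each given as wildtype and +EMD values. Lmna, the lamin A and C gene, had 20507 in wildtype and 16325 in +EMD. Lmnb1 is also a member of the mitosis list.

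Transcription factors of the lineage differed in part. Pax7, the satellite cell factor, had 143 in wildtype and 1953 in +EMD at day 1, a 13.6-fold difference. On days 0 and 2 it had 381 and 51.5 in wildtype against 2148 and 698 in +EMD. Myf5, the early myogenic regulator, had 234 in wildtype and 999 in +EMD. Both genes were thus higher in +EMD on each of the 3 days. The EMD-/y parent, in its own table, had 862 for Pax7 and 416 for Myf5 against wildtype values of 138 and 223. Lines made from EMD-/y cells with the emerin mutants S54F, del9599 and Q133H were also compared with wildtype at day 1. Their Pax7 ratios were 2.73, 3.44 and -4.23, and their Myf5 ratios 0.94, 2.65 and 1.75. Of 25 progenitor genes 5 were higher (20.0%, against 8.34% of all genes) and 0 lower. Besides Pax7 they were Id2 (392 and 1990) and Id4 (12.3 and 30.03), which encode inhibitors of basic helix-loop-helix factors, the Notch target Hey1 (121 and 511) and the surface antigen Cd34 (14.3 and 32.2).

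Myod1 had 17707 in wildtype and 18009 in +EMD, and its ratio was 0.02. Myog, which encodes myogenin, had 37794 in wildtype and 28304 in +EMD, a ratio of -0.42. Both master regulators were therefore within 2-fold at day 1, as they were at day 0 and day 2. Mef2c, which encodes a MEF2 partner of the myogenic factors, had 4085 in wildtype and 179 in +EMD, a 22.6-fold difference. It went from 1358 at day 0 to 11119 at day 2 in wildtype, and from 166 to 2908 in +EMD. In the EMD-/y parent Mef2c had 6271 at day 1, above the 3978 of wildtype in that table. Its ratio at day 1 was -0.43 in S54F, -5.48 in del9599 and -3.79 in Q133H, against -4.50 in +EMD. Mef2d was lower by a ratio of -1.05, and Mef2a, with a ratio of -0.70, was within 2-fold.

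**Figure D2:**
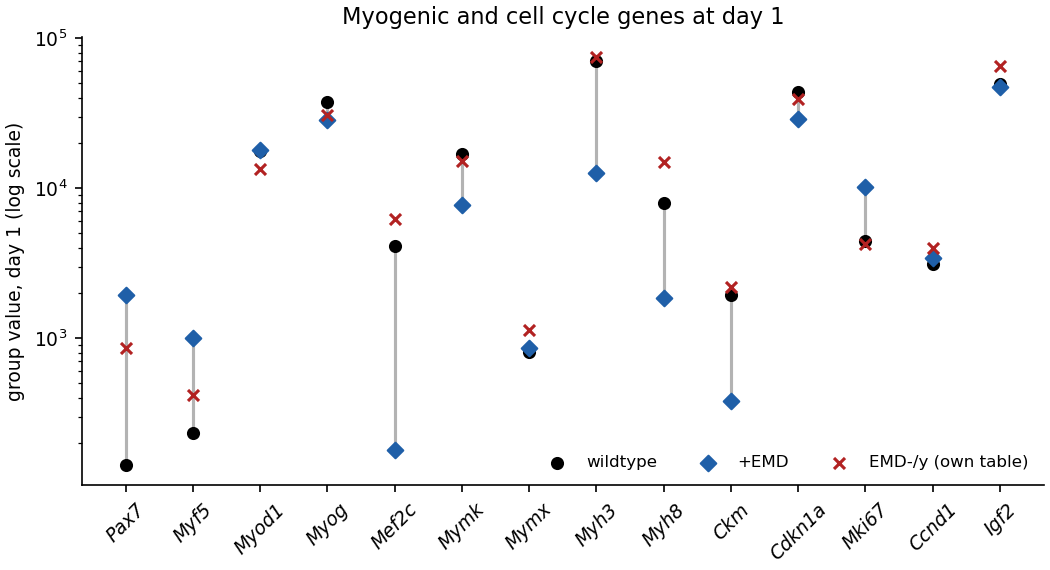
Group values at day 1 (y axis, log scale) of myogenic and cell cycle genes in wildtype, +EMD and the EMD-/y parent. EMD-/y values come from a separately normalised table. Mef2c, Myh3, Myh8 and Ckm are lower in +EMD than in both other lines, while Pax7 and Myf5 are highest in +EMD.

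Genes of fusion were mixed. Mymk, the membrane activator of myoblast fusion, had 17000.3 in wildtype and 7721 in +EMD, and Mymx, its partner in fusion, had 809 and 856. Of 27 genes of fusion and adhesion 5 were lower (18.5%, against 10.1% of all genes) and 1 was higher. The lowest was Cav3, which encodes the muscle caveolin, with 1875 in wildtype and 60.1 in +EMD. Dysf, encoding the membrane repair protein dysferlin, had 2305 and 793. In the dystrophin complex Dmd itself had 39.8 in wildtype and 1.17 in +EMD, and 4 of 20 members were lower (20.0%) and 1 higher. Dmd was at 53.7 and 56.8 in wildtype and at 1.24 and 3.92 in +EMD on days 0 and 2. The parent had 93.3 at day 1 in its own table.

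The sarcomere list held the largest share of lower genes among the lists in the plot of list shares. Of its 64 genes over the level filter 47 were lower (73.4%, against 10.1% of all genes) and 0 higher, and the median ratio was -1.50. The ratio was below 0 for 61 of 64. The embryonic myosin gene Myh3 had 70064 in wildtype and 12709 in +EMD, and the perinatal myosin gene Myh8 had 7933 and 1852. Myh2, the gene of fast IIa myosin, had 711 in wildtype and 3.04 in +EMD. Ankrd2, which encodes a titin-associated stress sensor, had 3456 and 27.8, and Tcap, which encodes the Z-disc protein telethonin, had 234 and 5.23. Actn2, the gene of sarcomeric alpha-actinin, had 7397 and 681. Among further members picked after their values were seen, Ttn, which encodes titin, had 30169.9 and 10619.6, Neb, which encodes nebulin, had 25797 and 5317, and Acta1, the skeletal actin gene, had 62910.04 and 21749. Not all thin filament genes were lower. Actc1, the cardiac actin gene expressed in early myotubes, had 30257 in wildtype and 39536 in +EMD, and Tpm1, a tropomyosin gene, had 27468 and 28144. Des, encoding desmin, had 28305 and 23452.

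Genes of excitation and calcium handling and of muscle metabolism showed the same direction. Of 30 excitation and calcium genes 15 were lower (50%, against 10.1% of all genes) and 0 higher. Casq1, the calsequestrin of fast fibres, had 200.5 in wildtype and 11.002 in +EMD. Hrc, a calcium-binding protein of the sarcoplasmic reticulum, had 2996 and 418. Cacna1s, the voltage sensor of the calcium channel, had 2454 and 418. Of 20 muscle metabolism genes 13 were lower (65.0%) and 0 higher. They included Ckm, the muscle creatine kinase (1926 and 382), Cox6a2, a muscle subunit of cytochrome oxidase (208 and 17.2), and Ppp1r3a, a glycogen-targeting subunit of protein phosphatase (82.7 and 1.19). Subunits of the respiratory chain as a whole did not share this pattern, with 2 of 77 lower (2.60%), 0 higher and a median of -0.10.

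**Figure D3:**
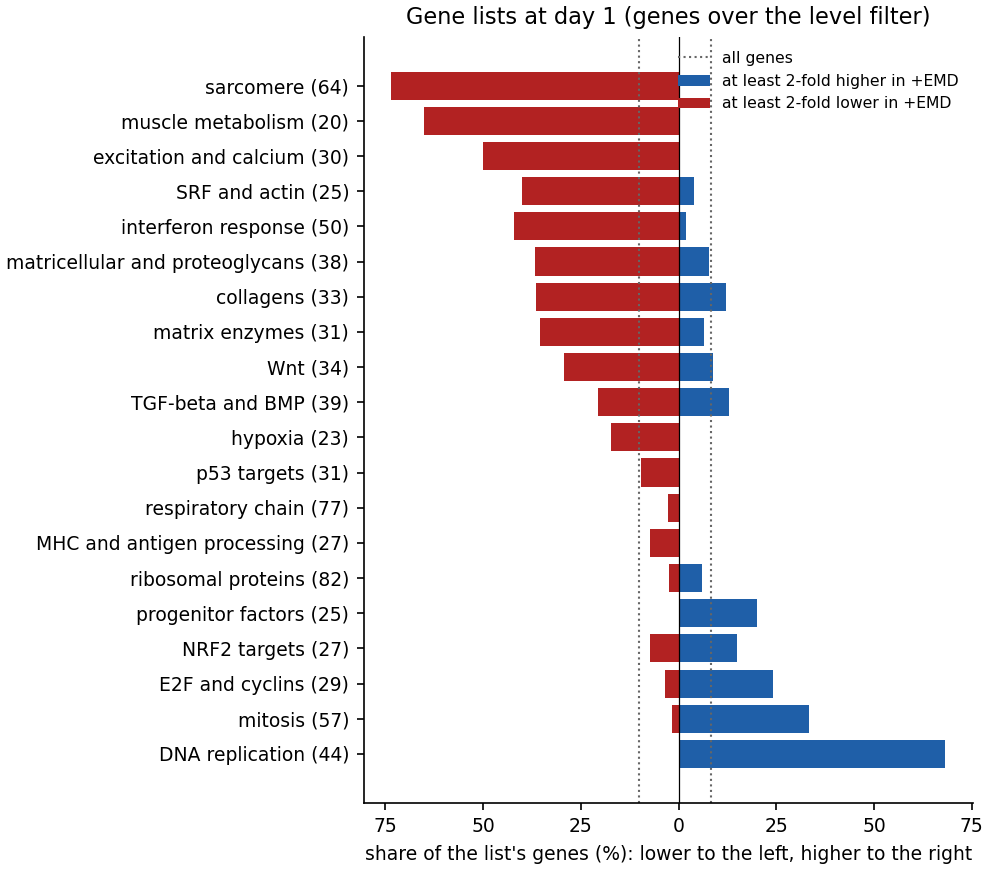
Share of each list's genes at least 2-fold higher (to the right) or lower (to the left) in +EMD at day 1, in percent of the list's genes over the level filter, whose number stands after the name. Dotted lines mark the shares over all genes, 8.34% higher and 10.1% lower. The sarcomere bar is the longest on the left and the DNA replication bar the longest on the right.

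In both lines the medians of the sarcomere, excitation and calcium, and muscle metabolism lists rose from day 0 to day 1, but not every gene did. Past 2-fold higher at day 1 were 57 of 64, 26 of 30 and 14 of 20 of their genes in wildtype. In +EMD these counts were 43, 13 and 5. Myh2, Tcap and Cox6a2 did not rise in +EMD, with log2 ratios of day 1 over day 0 of -0.13, -0.06 and -0.91. The median log2 ratio of day 1 over day 0 in the sarcomere list was 2.31 in wildtype and 1.33 in +EMD. From day 1 to day 2 it was 1.76 in wildtype and 2.70 in +EMD. The median ratio to wildtype was -0.63 at day 0, -1.50 at day 1 and -0.47 at day 2, with 20, 47 and 16 of 64 genes past 2-fold lower. Ckm had 170 at day 0 and 8478 at day 2 in wildtype, and 93.7 and 4264 in +EMD. Myh7, the slow myosin gene, was just past 2-fold lower at day 1 and was higher by a ratio of 1.29 at day 2. Both transitions use the same day 1 libraries as the main comparison, so they are not separate evidence for it. In the EMD-/y parent, compared with the same wildtype libraries, the list's median was 0.18, with 4 genes past 2-fold higher and 3 lower. The other lines made from EMD-/y cells with a lentivirus carry the emerin mutants S54F, del9599 and Q133H. Their sarcomere medians at day 1, against the same wildtype libraries, were -0.59, -3.45 and -4.25, so the list lay below wildtype in each, and their medians over all genes were -0.01, -0.01 and -0.02.

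The cell cycle lists lay on the other side. Of 44 DNA replication genes 30 were higher (68.2%, against 8.34% of all genes) and 0 lower. The ratio was above 0 for all 44, from 0.28 for Orc1 to 2.33 for Cdc6, with a median of 1.34. Cdc6, which loads the replicative helicase, had 361 in wildtype and 1823 in +EMD. Gins2, a helicase subunit, had 187 and 794, Chaf1b, a subunit of the histone chaperone CAF-1, had 543 and 2282, and Dut, the dUTPase, had 780 and 3263. Pcna, the sliding clamp, picked after its value was seen, had 3533 and 12337. Of 57 mitosis genes 19 were higher (33.3%) and 1 lower, and 56 ratios were above 0, with a median of 0.92. Mybl2, a transcription factor of the cell cycle, had 197 in wildtype and 1096 in +EMD. Mki67, the proliferation marker, had 4418 and 10237. Bub1b, of the spindle checkpoint, had 1331 and 4009.5, and Ncaph, a condensin subunit, 1206 and 3339. The exception was Pttg1, the gene of securin, with 855 and 354, which was also lower at day 0 and higher at day 2.

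Of 29 E2F and cyclin genes 7 were higher (24.1%, against 8.34% of all genes) and 1 lower. The E-type cyclin genes Ccne1 (1351 and 3725) and Ccne2 (561 and 2559), which act at the entry into S phase, and E2f7 (443 and 1445) were higher, and Ccnd2 (3945 and 1599.8) was lower. Ccnd1 had 3137 in wildtype and 3442 in +EMD. Cdkn1a had 43751 and 28775, a ratio of -0.60, and was not past 2-fold on any of the 3 days. Cdkn1c, an imprinted inhibitor of cyclin-dependent kinases, had 3002 and 18636. Of 31 p53 targets 3 were lower (9.68%, near the 10.1% of all genes) and 0 higher.

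The distance between the lines differed over the days. Between day 0 and day 1 the DNA replication list had a median log2 ratio of -0.78 in wildtype and 0.23 in +EMD, and the mitosis list -0.89 and -0.04. The ratio of +EMD to wildtype for DNA replication was 0.32 at day 0, 1.34 at day 1 and 2.00 at day 2, with 1, 30 and 38 of 44 genes past 2-fold higher. For mitosis it was -0.02, 0.92 and 3.14, with 0, 19 and 56 of 57 higher. Mki67 had 10549 and 14402 at day 0 and 70.4 and 2434 at day 2 in wildtype and +EMD. From day 1 to day 2 the mitosis list had a median of -1.75 in +EMD and -3.98 in wildtype, so values were lower at day 2 in both lines. In the EMD-/y parent, against the same wildtype libraries, the medians at day 1 were 0.13 and 0.05, and 0 genes of either list were past 2-fold higher. The DNA replication medians were 0.61 in S54F, 1.09 in del9599 and 0.85 in Q133H, and the mitosis medians were 0.53, 0.92 and 0.78, also from the same wildtype libraries. Medians above 0 for both lists were therefore seen in every transduced line read here, and smaller ones, 0.13 and 0.05, in the untransduced parent. The RNA came from whole cultures, so more cycling cells and more RNA of these genes per cell cannot be told apart.

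**Figure D4:**
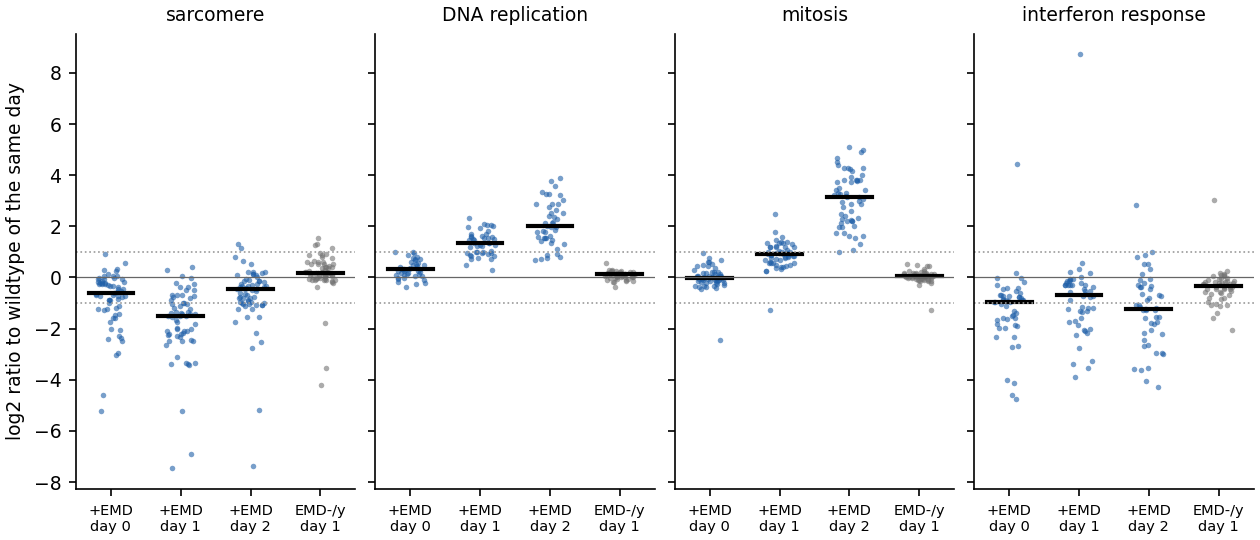
Log2 ratio to wildtype of the same day (y axis) for the genes of 4 lists. Blue points are +EMD at days 0, 1 and 2 and grey points the EMD-/y parent at day 1. Each point is a gene, bars are medians and dotted lines 2-fold. The sarcomere median is lowest at day 1 (-1.50) and the mitosis median highest at day 2 (3.14).

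Of 50 interferon-response genes 21 were lower (42.0%, against 10.1% of all genes) and 1 higher, with a median of -0.68. Ifi44 had 171 in wildtype and 10.7 in +EMD, Ifit3b 103 and 9.06, Ifi27l2a 50.01 and 3.41, and Oas1g, an oligoadenylate synthetase, 22.1 and 1.42. The transcription factor gene Irf1, picked after its value was seen, had 2139 and 1840.3 and was within 2-fold. The list's median was -0.95 at day 0 and -1.22 at day 2, and -0.34 in the EMD-/y parent at day 1. In S54F, del9599 and Q133H at day 1 it was -0.34, 0.47 and 0.72, so the list lay above wildtype in del9599 and Q133H. Interferon gamma is part of the growth medium of these cells. From day 0 to day 1 the median was -0.97 in wildtype and -0.95 in +EMD. Of 27 MHC and antigen processing genes 2 were lower (7.41%) and 0 higher. The higher interferon gene was Irgm2, a GTPase, with 2.13 in wildtype and 1314 in +EMD. Its wildtype value at day 1 ran from 1.23 to 167 over the 7 tables that hold this group, and the least distance between the lines over those tables was 2.97 on the log2 scale.

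The promoters of members past 2-fold were read from RefSeq (GRCm38.p6, the same assembly as mm10) to show what the lists carry upstream of their start sites. Only the 250 bases before the start were searched, on both strands, and 1 promoter was taken per gene. The core of the interferon-stimulated response element, GAAA repeated after a gap of 2 bases, occurred in 10 of 16 interferon genes that were lower and had a promoter, in 11 of 23 of the other interferon genes and in 3.04% of all 27025 promoters. The muscle E-box CAGCTG occurred in 14 of 39 lower sarcomere genes, in 5 of 11 other sarcomere genes and in 12.8% of all promoters. The E2F-type letters TTCCCGC occurred in 7 of 25 higher replication genes, in 4 of 11 others and in 3.84% of all promoters. A match describes letters only, and each motif also occurred in list members that were not past 2-fold in that direction. The 2 members of each list with the largest ratios among those with a match are shown, in capitals the match and in the gene's 5′ to 3′ direction. Where the gene's strand reads the reverse complement of a motif, the capitals give that. Ifit3b and Oas1g hold 2 matches each, of which 1 is in capitals.
Cdc6, chr11:98907963-98908069, plus strand: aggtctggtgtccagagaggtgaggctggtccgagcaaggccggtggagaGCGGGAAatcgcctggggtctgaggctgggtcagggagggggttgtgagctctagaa
Chaf1b, chr16:93883651-93883730, plus strand: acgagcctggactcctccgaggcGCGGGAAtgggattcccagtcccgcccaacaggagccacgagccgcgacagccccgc
Myh4, chr11:67237695-67237800, plus strand: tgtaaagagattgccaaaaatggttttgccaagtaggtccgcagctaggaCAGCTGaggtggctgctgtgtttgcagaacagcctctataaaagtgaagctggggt
Mybpc1, chr10:88605184-88605289, minus strand: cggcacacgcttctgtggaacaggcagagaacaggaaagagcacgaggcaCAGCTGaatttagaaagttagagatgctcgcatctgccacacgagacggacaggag
Ifit3b, chr19:34607719-34607828, plus strand: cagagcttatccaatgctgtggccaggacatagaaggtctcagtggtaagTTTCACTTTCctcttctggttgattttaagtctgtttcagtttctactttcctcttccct
Oas1g, chr5:120887614-120887681, minus strand: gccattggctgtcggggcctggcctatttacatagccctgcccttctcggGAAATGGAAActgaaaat
Myh4, a fast myosin gene, had 97.1 in wildtype and 8.45 in +EMD at day 1, and Mybpc1, which encodes a myosin-binding protein, had 1138 and 112.

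Matrix genes were lower in part. Of 33 collagen genes 12 were lower (36.4%, against 10.1% of all genes) and 4 higher (12.1%, against 8.34%). Col1a2, a chain of type I collagen, had 37692 in wildtype and 780 in +EMD, and 34505 in the EMD-/y parent. Col25a1, a collagen of muscle innervation, had 2059 and 54.99, and Col4a5, of basement membranes, 652 and 23.4. Higher members were Col6a3 (402 and 946) and 3 genes with low values. Of 38 matricellular and proteoglycan genes 14 were lower (36.8%) and 3 higher (7.89%), among them Gpc4, a glypican, with 679 and 3.92, and Cspg4, the NG2 proteoglycan, with 113 and 1142. Of 31 matrix enzyme genes 11 were lower (35.5%) and 2 higher (6.45%). Adamts2, the procollagen N-proteinase, had 382 and 12.8, and Mmp2, a gelatinase, 3261 and 7951. Of 25 genes of the SRF and actin list 10 were lower (40.0%) and 1 higher, including Myl9 (3872 and 908) and Actg2 (689 and 152). Summed over the 15 genes of the fibroblast marker list, the value was 11727 in wildtype and 5850.4 in +EMD, and the part of such cells in these matrix values was not tested.

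Among signalling lists, read against 10.1% lower and 8.34% higher over all genes, 10 of 34 Wnt genes were lower (29.4%) and 3 higher (8.82%). Sfrp2, a secreted Wnt modulator, had 557 in wildtype and 7.24 in +EMD. Of 39 TGF-beta and BMP genes 8 were lower (20.5%) and 5 higher (12.8%), with Bmp4 at 62.3 and 0.975 and the BMP antagonist Grem1 at 153 and 512. Of 22 genes of the IGF axis 3 were lower (13.6%) and 4 higher (18.2%). Igf2 had 49532 and 47526. Igfbp7, an IGF-binding protein, had 1808 and 64.6, and Igfbp4 had 229 and 1100. Of 30 Hippo and Yap target genes 3 were lower, the same share as over all genes, and 0 higher. Of 24 polycomb and imprinted genes 5 were higher (20.8%) and 3 lower (12.5%), with Mest at 8143 and 52854 and Ndn at 577 and 45.3. Of 27 NRF2 targets 4 were higher (14.8%) and 2 lower (7.41%), with Gsr, the glutathione reductase, at 298 and 2896. Of the higher ones, Gsr and Nqo1 lie on chromosome 8 and Cbr3 on chromosome 16, whose genes were displaced upwards as whole sets. Gstm1 lies on chromosome 3. The part of that displacement in this count was not tested. The ribosomal protein list had 5 of 82 higher (6.10%) and 2 lower (2.44%), with a median of -0.01.

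The largest single ratios lay mostly outside these lists. Among named genes whose group values averaged 100 or more, the 10 highest were Irgm2, Ikzf1, H2ac24, Ifi211, Rpl26, Lbx1, Kpna2, Grik3, Eif2s3y and Six2, from 8.72 down to 5.45. Ikzf1, a lymphoid transcription factor, had 2.66 in wildtype and 1100.1 in +EMD, and at least 1082 in +EMD at days 0 and 2. Lbx1, a factor of migrating limb muscle precursors, had 3.07 and 262, and Six2, a homeobox factor, 9.33 and 449. All 10 genes also had higher values in the EMD-/y parent than in wildtype at day 1. Lbx1 and Six2 had 194 and 169 in the parent. Ifi211, Rpl26, Kpna2 and Eif2s3y had 702, 4902, 4204 and 1171, with parent ratios of 5.97, 6.17, 5.50 and 6.12. Eif2s3y lies on chromosome Y, where it alone of 4 genes with a mean of at least 100 had a ratio above 0 in +EMD. The parent ratios of Irgm2, Ikzf1, H2ac24 and Grik3 were smaller, at 3.02, 4.18, 2.57 and 2.28. H2ac24, a histone gene, had 1.25 in wildtype and 587 in +EMD, but 688 and 509 at day 0. It belongs to the genes that stood apart in wildtype at day 1. Its wildtype value was also low at day 2, with 6.84 against 145 in +EMD, and the EMD-/y parent had 12.7 at day 1. Pebp1, a RAF kinase inhibitor named after its values were seen, had 291 and 2723 at day 1, 2503 and 1331 at day 0, and 3256 and 3287 at day 2. The reads of H2ac24, Ifi211, Rpl26 and Kpna2 could be shared with near-identical transcripts of other genes, so their values are uncertain. Of the 203 genes picked by rule 29 share a near-identical stretch with another gene's transcript. Among those given here are the family members Oas1g, Ifit3b and Hmga1b, and Gins2, Ccne2, Mest, Lbr and Nrm, whose transcripts match those of a gene with another name.

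The 10 lowest were Emd, Ifi202b, Eno1b, Myh2, Nmral1, Gpc4, Ankrd2, Hs6st2, Tspan7 and Sfrp2, from -9.29 up to -6.08. Eno1b has near-identical copies, among them Eno1, and its value is uncertain. In the EMD-/y parent Emd, Ifi202b and Eno1b had 2.36, 3.83 and 59.4. Gpc4, Hs6st2 and Tspan7, a tetraspanin, lie on chromosome X, and Nmral1 on chromosome 16. For these 4 genes the +EMD values at day 1 were 3.92, 39.5, 7.64 and 1.10, the wildtype values were 679, 3960, 635 and 356, and the EMD-/y values were 899, 2914, 461 and 242. On days 0 and 2 the +EMD values of all 4 were at most 12.9, except that Hs6st2 had 85.3 at day 2.

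Values in the EMD-/y parent were set beside those of +EMD, both against the same wildtype libraries but in tables that were normalised separately. At day 1 the parent had 541 genes past 2-fold higher (4.11%) and 339 lower (2.57%) than wildtype. The genes with the largest excess of the +EMD ratio over the parent ratio were Irgm2, H2ac24, Ikzf1, Hmga1b, Grik3, Coro2a, Plce1 and Rnf144a. Irgm2 itself was nearly equal in both lines, with 1314 in +EMD and 1295 in the parent, and its ratios of 8.72 and 3.02 differed through wildtype values of 2.13 and 159 in the 2 tables. Hmga1b was lower than wildtype in both lines, by ratios of -3.44 and -7.16. Coro2a, an actin-binding coronin gene, had a ratio of 3.18 in +EMD and 0.27 in the parent, and Plce1, a phospholipase gene, 4.21 and 1.41. The genes whose ratio lay most below that of the parent were Gpc4, Nmral1, Hs6st2, Klhl13, Tspan7, Tcap, Col1a2 and Casq1. Tcap had a ratio of -5.23 in +EMD and 0.36 in the parent, and Casq1 -4.07 and 1.25. Klhl13, a ubiquitin ligase adaptor gene on chromosome X, had -2.92 and 3.08. Pax7, Cdkn1c and Lbx1 were past 2-fold higher in both lines, with ratios of 3.77, 2.63 and 6.01 in +EMD and 2.64, 2.80 and 5.32 in the parent.

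The same 2 lines at days 0 and 2 share no library with day 1. At day 0, 761 of 13005 genes were higher in +EMD (5.85%) and 1316 lower (10.1%). At day 2, 1317 of 13073 were higher (10.1%) and 950 lower (7.27%). Of the 1099 genes higher at day 1, 427 were past 2-fold higher at day 0 and 671 at day 2, with 330 on all 3 days and 331 at day 1 alone. Of the 1329 lower genes, 811 were past 2-fold lower at day 0 and 673 at day 2, with 529 on all 3 days and 374 at day 1 alone. Genes not listed on another day, 1 of the higher and 8 of the lower genes, count as not past 2-fold there. With the level filter applied on both days, the higher genes shared with day 0 were 36.9% of the day 1 list and 53.4% of the day 0 list, and those shared with day 2 were 55.2% and 46.1%. For lower genes the shares were 55.3% and 55.9% with day 0, and 47.4% and 66.3% with day 2. Of the 331 genes higher at day 1 alone 97 were predicted genes. Past 2-fold in the opposite direction at day 0 were 56 of the higher genes, 47 of them predicted, and 28 of the lower genes, 17 of them predicted.

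Position on the chromosomes was described with the 10301 genes that had a mean of at least 100 and a known place. The median ratio was 0.48 for 591 genes on chromosome 8 and 0.46 for 342 genes on chromosome 16, a median fold of 1.39 and 1.38. On chromosome 8, 84.3% of genes had a ratio above 0, and on chromosome 16, 84.2%, against 49.8% over all chromosomes. Genes past 2-fold higher made up 14.7% and 14.9%, against 5.71% of all these genes. The same medians were 0.54 and 0.51 at day 0 and 0.46 and 0.47 at day 2. In the EMD-/y parent at day 1 they were 0.07 and 0.06. In the other transduced lines at day 1 the medians for chromosomes 8 and 16 were 0.42 and 0.13 in del9599, 0.04 and 0.01 in S54F, and -0.04 and -0.02 in Q133H, so chromosome 8 was displaced in del9599 as well. Q133H had a median of 0.39 on chromosome 3 and S54F of 0.27 on chromosome 15. Along chromosome 8 the medians of segments of 20 Mb lay between 0.27 and 0.62, and along chromosome 16 between 0.34, from 17 genes, and 0.51. Chromosome 3 had a median of -0.23, and chromosome X of -0.20. On the other autosomes the medians lay between -0.12 and 0.06. Chromosome number was not measured in these files. Without chromosomes 8 and 16, 925 genes were higher and 1285 lower over the whole table. The DNA replication list, with 11 of its 44 genes on these chromosomes, then had 21 of 33 genes higher and a median of 1.25, and the mitosis list 19 of 56.

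**Figure D5:**
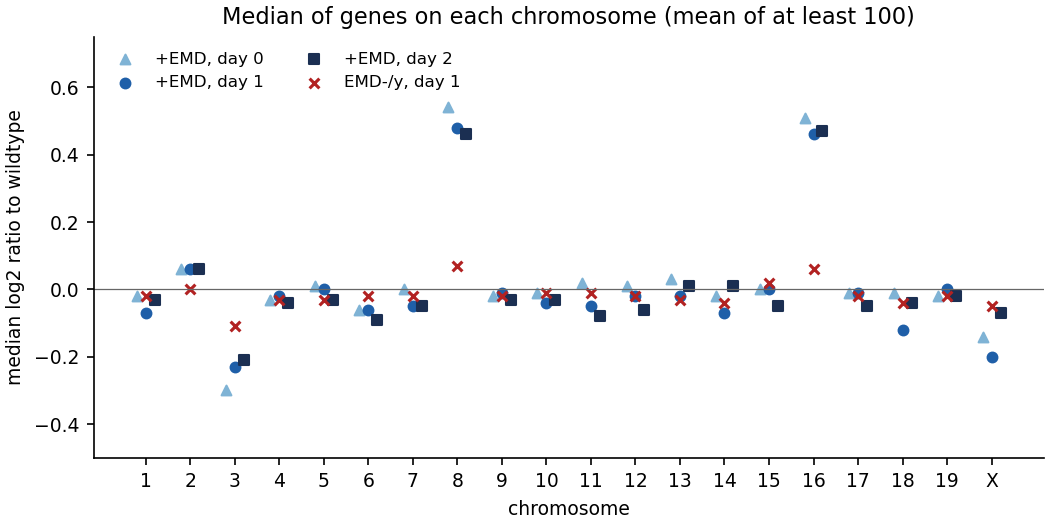
Median log2 ratio to wildtype (y axis) of the genes on each chromosome (x axis) with a mean of at least 100, for +EMD at days 0, 1 and 2 and for the EMD-/y parent at day 1. Chromosomes 8 and 16 lie between 0.46 and 0.54 in +EMD on all 3 days and at 0.07 and 0.06 in the parent.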

How the data were processed

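Poly-A RNA was sequenced on a BGI platform. The authors' provider cleaned the reads with SOAPnuke, aligned them to mm10 using HISAT2 and ran DESeq2 on each pair of groups. The deposited signal values are the authors' normalised expression per group. Genes with a single read in 1 of 6 libraries have values above 0 in both columns. From this the mean of both columns was taken to be the mean over libraries, divided between the groups by a shrunken fold, and a value near 0 cannot be told from no reads. Tables differ in scale. With each table shifted by its median over highly expressed genes, the wildtype day 1 value differed from its value in the day 1 table by a median of 0.000766 (log2) over the other tables for genes of 100 or more, and by 0.0141 for genes of 10 to 100. The deposited fold changes, p-values, q-values and up or down calls are the authors' findings and were not used. If the columns are divided by a shrunken fold, however, the ratios given here follow that fold and are not independent of it. Tables hold 0 columns per sample, so the planned limma test was replaced by ratios with a pseudocount of 1, a mean of at least 10 and a 2-fold limit, without a test. The ratio function was tested on simulated data.

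Gene IDs were matched to RefSeq symbols (15941 of 15964). The genes compared and the 44 gene lists were chosen with earlier results of these data known. Genes named are a fixed set of 15 lineage and cell cycle genes, the 10 largest ratios in each direction with a mean of at least 100, up to 4 per list and direction, and the 8 largest differences from EMD-/y in each direction. Near-identical copies (200 bases, 97% identity) were sought with minimap2 2.31-r1302 in GENCODE transcripts. Python 3.11.15, numpy 2.4.6, pandas 2.3.3 and matplotlib 3.10.9 were used. Alternatives are given at the end. Other tables were not analysed here.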

Additional observations from a re-analysis of the deposited data

How the results depend on the processing

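Against 1099 higher and 1329 lower genes, a 4-fold limit gave 306 and 544, and a mean of at least 100 gave 629 and 732. Both settings count fewer genes by construction. Pseudocounts of 10 and 0.5, no level filter, centring on the median gene, scaling to the sum of all genes and leaving out predicted genes kept both counts within 1.5 times. Scaling to the sum, which shifts all ratios by 0.08, gave 1292 higher and 1216 lower, so that the larger group changed sides. Settings added after the data were seen, without chromosomes 8 and 16, without the wildtype genes that stood apart, or past 2-fold with the values of every table that holds either group (1073 and 1297), also kept both within 1.5 times. The counts for days 0 and 2 with a pseudocount of 10 and the sum of 348 over all lists under a mean of at least 100 or sum scaling did so too. Of the 88 counts of single lists, however, 21 were over 1.5 times smaller with a mean of at least 100 and 11 moved as far with sum scaling, most by 3 genes or fewer. With a mean of at least 100, lower interferon genes went from 21 to 13, lower Wnt genes from 10 to 5, higher progenitor genes from 5 to 3 and higher collagens from 4 to 1. With sum scaling lower p53 targets went from 3 to 1. None of 203 named genes reversed under the 4 settings tried. Acta2, Mef2d and Pdgfra were among those no longer past 2-fold with sum scaling. No paired analysis was possible because the columns hold group values without replicate numbers. Leaving out a replicate, a test without a fold limit, and alternatives of counts against EMD-/y, which were not made, were not run. Each library's share in a value is unknown, so how far any difference exceeds the spread between replicates cannot be stated.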

Other observations

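Further genes changed sides between days. Rps13 and Atp5g2, a ribosomal protein and an ATP synthase gene, had 1574 and 2556 in wildtype and 307 and 518 in +EMD at day 1, but 709 and 874 in wildtype and 1737 and 1804 in +EMD at day 0. Slc7a11, the cystine transporter gene, had 125 in wildtype and 39.8 in +EMD at day 1 and 172 and 824 at day 0.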
